A study of Mus musculus with 30 samples.

Results

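Of the 30 bulk RNA-seq libraries in the series, 8 were compared, the A-Fos and the GFP cultures of the set whose titles carry a date. The libraries were taken by their titles, 4 from A-Fos cultures (condition DN_AP1) and 4 from GFP cultures, numbered 1 to 4 in each condition. All came from mouse dorsal root ganglion (DRG) cells of genotype C57/Bl6 wt, enriched for neurons and grown as primary cultures. The A-Fos cultures had received a PHP.S adeno-associated virus, a capsid chosen for sensory neurons, that carries the AP-1 dominant negative, and the GFP cultures had received the GFP vector in the same capsid. By the series' design a replicate is the culture of 1 mouse, split over A-Fos, GFP and untransduced conditions. Equal numbers were taken to mark the same mouse, which the titles do not state, and fits compared A-Fos with GFP within a number. The 4 untransduced cultures of the set are given as levels only, and a plain set and a 7-days-in-vitro (7DIV) set of 3 A-Fos and 3 GFP cultures each were used for comparison. The labels used here give no age, no sex and no time in culture for the dated set, and the transcripts of A-Fos and GFP themselves were not analysed here.

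AP-1 is a family of transcription factors that work as dimers of a Fos-like and a Jun-like protein joined through leucine zippers, with ATF and Maf relatives as further partners. A-Fos keeps the zipper of Fos but has an acidic stretch in place of the part that touches DNA, so that it ties up Jun-type partners in dimers that cannot bind. In sensory neurons AP-1 members are part of the program that follows axon injury, and dissociating a ganglion cuts every axon, so cultured DRG neurons carry much of that program.

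Total counts were 33746333 to 37597752 in A-Fos libraries and 28496238 to 35711406 in GFP libraries. Levels are given as counts per 1000000 counts of the genes tested (CPM), with TMM scaling, and differences as the log2 fold change of A-Fos over GFP ± its standard error (SE). A gene is said to rise or fall where edgeR's quasi-likelihood test, with the culture number as a block, gave a Benjamini-Hochberg adjusted p under 0.05 over all 17425 genes tested. Means stand with the SD over 4 cultures.

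All 9 sensory neuron markers examined were detected. Their summed level was 4135, 3194, 3950 and 2765 CPM in A-Fos cultures 1 to 4, 3932, 4065, 3580 and 2306 CPM in GFP cultures 1 to 4, and 3130 to 3878 CPM in untransduced cultures. Culture 4 was therefore lowest in the A-Fos and the GFP condition, but not in the untransduced one. Of these markers Avil, an actin-binding protein of sensory neurons, rose by 0.58 ± 0.14 without overlap (adjusted p = 0.0434) and Prph, the filament protein peripherin, rose by 0.40 ± 0.10 in ranges that overlapped (adjusted p = 0.0339). Neither call was kept without the replicate block (adjusted p = 0.319 for Avil and 0.552 for Prph) or without culture 1, 3 or 4 (0.0876 to 0.117 for Avil and 0.166 to 0.239 for Prph), and in DESeq2 Avil had an adjusted p of 0.0634. Tubb3, the neuronal beta-tubulin, fell, and the other 6 (Isl1, Pou4f1, Uchl1, Rbfox3, Scn9a and Scn10a) had log2 fold changes of 0.01 to 0.34 that did not pass. The summed level of 4 fibroblast markers (Col1a1, Col1a2, Dcn and Pdgfra) ran the other way. It was 3202 to 6250 CPM in A-Fos cultures and 3225 to 5670 CPM in GFP cultures, highest in culture 4 of each. Col1a2 made up most of this sum, and Pdgfra was highest in culture 1 of each condition (3.76 CPM in A-Fos and 4.15 CPM in GFP). In bulk RNA, fewer neurons and less RNA per neuron cannot be told apart.

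**Figure D1:**
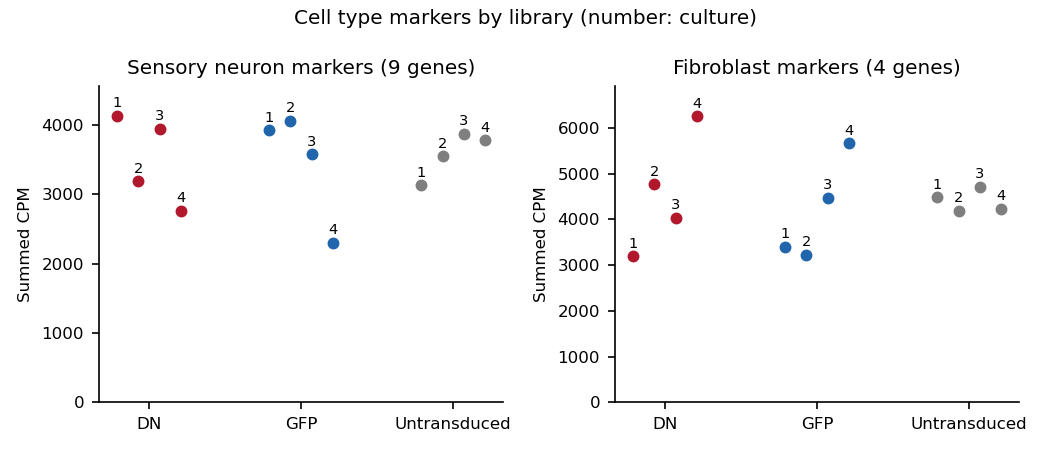
Summed CPM (y axis) of 9 sensory neuron markers and of 4 fibroblast markers in each library, with A-Fos (DN), GFP and untransduced cultures along the x axis and the culture number above each point. Culture 4 is lowest for neuron markers and highest for fibroblast markers in A-Fos and in GFP, at 2306 CPM of neuron markers in GFP.

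GFP culture 4 also stood apart from the other 7 libraries on the first principal component of log2 CPM (a score of 62.2, against -27.4 to 12.1), which held 32.1% of the variance. Noncoding features Gm26917, Gm23935 and Gm42418, the 3 most abundant of the table and looked at after their values were seen, took 7.07% to 8.53% of the counts in A-Fos libraries, 5.67% to 6.49% in GFP libraries and 5.05% to 6.43% in untransduced ones, so the A-Fos range lay above the others. Counts without culture 4 are given with the results, and beyond that the bearing of these values on them was not tested.

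A minority of genes differed between A-Fos and GFP, with more rises than falls. Of the 17425 genes tested, 943 passed (5.41%), of which 583 rose (3.35% of all tested) and 360 fell (2.07%). The median log2 fold change was 0.55 among the rises, -0.51 among the falls and -0.01 among all genes tested, and 119 rises and 70 falls were at least 2-fold. In 933 of the 943 genes all 4 pairs moved the same way, and in 631 the A-Fos and GFP ranges did not overlap, a separation that 8.99% of all genes tested also had. The calls were made on these same pairs, so both counts follow in part from the selection and are no separate support. Without the replicate block 262 genes passed, 141 that rose and 121 that fell. Leaving out both libraries of a culture gave 380 genes without culture 1, 1212 without culture 2, 573 without culture 3 and 679 without culture 4. Rises were fewest without culture 1, at 240, and falls likewise, at 140.

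**Figure D2:**
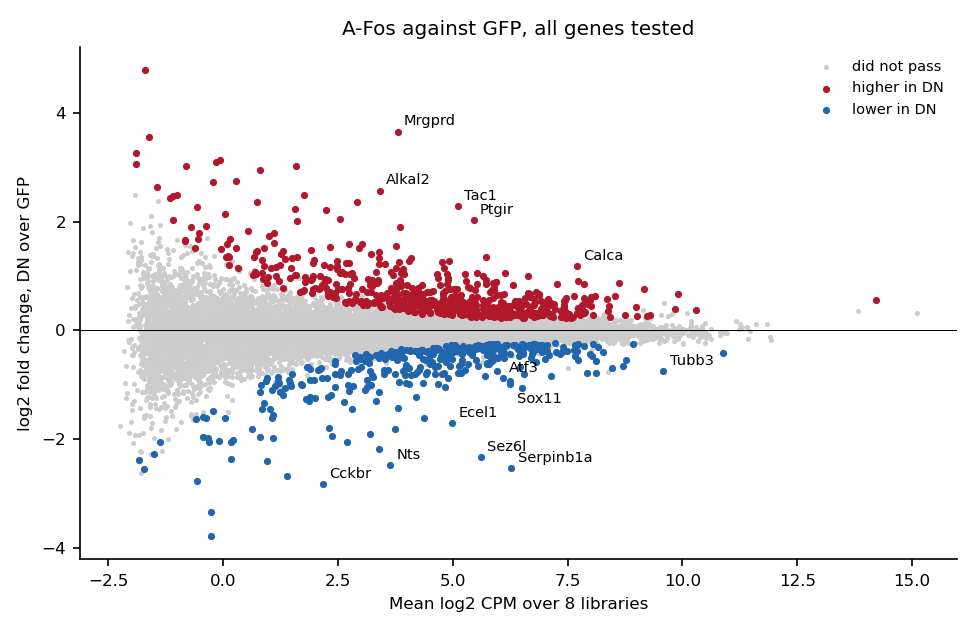
Log2 fold change of A-Fos (DN) over GFP (y axis) against the mean log2 CPM over the 8 libraries (x axis) for each of the 17425 genes tested, with the 583 rises in red, the 360 falls in blue and genes that did not pass in grey. Mrgprd (3.66) is the highest labelled point and Cckbr (-2.83) the lowest.

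Most transcripts of the AP-1 family itself did not pass, although the share that did was above that of all genes tested. Of 18 members tested, 2 fell and 1 rose (16.7% called, against 5.41% of all genes tested), with a median of -0.04. Without the replicate block 0 passed. Fos had 29.7, 37.0, 38.6 and 39.1 CPM in A-Fos cultures 1 to 4, against 34.5, 43.9, 33.4 and 34.8 CPM in GFP cultures 1 to 4, and its difference of -0.02 ± 0.09 did not pass (adjusted p = 0.941). Jun, the main partner of Fos, averaged 312 ± 28.6 CPM in A-Fos cultures and 276 ± 13.2 CPM in GFP cultures with a difference of 0.18 ± 0.07 that did not pass either (adjusted p = 0.240). The Fos and the Jun ranges of the 2 conditions overlapped.

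Atf3, a stress-induced family member that marks injured DRG neurons (ENSMUSG00000026628, chr1:191170296-191218039), had 67.5, 43.2, 55.0 and 40.7 CPM in A-Fos cultures 1 to 4, against 125, 125, 87.0 and 53.2 CPM in GFP cultures 1 to 4. It was lower in A-Fos in every pair, although the ranges overlapped through GFP culture 4, and it fell by 0.87 ± 0.15 (adjusted p = 0.0127, and 0.164 without the replicate block). Fosl1, which encodes Fra-1, had 18.9, 22.1, 25.5 and 24.9 CPM in A-Fos cultures 1 to 4, against 27.3, 31.4, 30.7 and 36.4 CPM in GFP cultures 1 to 4, with no overlap, and fell by 0.46 ± 0.08 (adjusted p = 0.00406, and 0.0735 without the block). Jund rose by 0.31 ± 0.07 on averages of 191 ± 12.9 CPM in A-Fos cultures and 155 ± 16.3 CPM in GFP cultures. The Jund call was not kept without culture 1, 3 or 4 (adjusted p = 0.173, 0.183 and 0.0805). Another 12 members (Fosb, Fosl2, Junb, Atf2, Atf7, Batf3, Jdp2, Maf, Mafa, Maff, Mafg and Mafk) lay between -0.43 for Mafa and 0.09 for Mafg and did not pass. Over all members of the list that did not pass, the range was -0.73 to 0.18.

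Genes often described as AP-1 targets moved in part. Of 23 tested, 4 fell and 1 rose (21.7% called, against 5.41% of all genes tested), with a median of -0.11. Rises and falls of these targets were 1 and 2 without the replicate block, 1 and 2 without culture 1 and 1 and 2 without culture 3. Dusp1, a phosphatase that switches off MAP kinases, had 72.1, 74.1, 78.1 and 61.0 CPM in A-Fos cultures 1 to 4, against 141, 149, 120.4 and 92.6 CPM in GFP cultures 1 to 4. Every A-Fos culture lay below every GFP culture, and the fall was 1.74-fold (log2 -0.80 ± 0.08, adjusted p = 8.81e-05). Plaur, the urokinase receptor, averaged 19.4 ± 2.34 CPM in A-Fos cultures and 30.7 ± 2.81 CPM in GFP cultures and fell by 0.66 ± 0.11 without overlap. Smaller falls were those of Timp1, a metalloprotease inhibitor (-0.31 ± 0.07), and of the growth factor gene Tgfb1 (-0.27 ± 0.06). Neither was kept without culture 1, 3 or 4 (adjusted p = 0.180, 0.102 and 0.0622 for Timp1, and 0.229, 0.105 and 0.0647 for Tgfb1). The rise was in Ngfr, the p75 neurotrophin receptor, at 317 ± 62.9 CPM in A-Fos cultures and 174 ± 31.6 CPM in GFP cultures (log2 0.86 ± 0.09). Of 24 immediate early genes tested, only Dusp1 passed (4.17%, near the 5.41% of all genes tested). The others lay at -0.25 to 0.15, with 4 falls of 24 without culture 2.

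The binding letters of AP-1 stood in the promoters of some of these genes. The 4 windows printed are shown because they belong to genes that moved in opposite directions; each runs from 250 bases before to 50 bases after an annotated start, 5′ to 3′ on the gene's strand, from RefSeq on build GRCm38.p6. Capitals mark the AP-1 letters TGACTCA or TGAGTCA in the first 3 and the cAMP response element TGACGTCA in the last. Nts (chr10:102490369-102490668, minus strand) and Plaur (chr7:24462233-24462532, plus strand) fell, Kcnip3 (chr2:127522045-127522344, minus strand, the window of 1 of its 3 starts) rose, and Dusp1 (chr17:26508423-26508722, minus strand) fell.
Nts: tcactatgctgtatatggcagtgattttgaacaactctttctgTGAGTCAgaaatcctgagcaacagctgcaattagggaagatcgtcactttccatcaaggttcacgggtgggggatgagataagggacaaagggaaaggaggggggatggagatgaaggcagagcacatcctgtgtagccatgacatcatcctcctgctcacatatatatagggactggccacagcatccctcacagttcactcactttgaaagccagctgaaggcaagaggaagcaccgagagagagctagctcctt
Plaur: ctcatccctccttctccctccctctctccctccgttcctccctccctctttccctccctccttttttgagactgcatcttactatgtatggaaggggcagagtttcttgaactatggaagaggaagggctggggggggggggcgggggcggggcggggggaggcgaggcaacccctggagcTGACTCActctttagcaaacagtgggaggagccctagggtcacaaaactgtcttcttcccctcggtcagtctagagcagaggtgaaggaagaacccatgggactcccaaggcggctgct
Kcnip3: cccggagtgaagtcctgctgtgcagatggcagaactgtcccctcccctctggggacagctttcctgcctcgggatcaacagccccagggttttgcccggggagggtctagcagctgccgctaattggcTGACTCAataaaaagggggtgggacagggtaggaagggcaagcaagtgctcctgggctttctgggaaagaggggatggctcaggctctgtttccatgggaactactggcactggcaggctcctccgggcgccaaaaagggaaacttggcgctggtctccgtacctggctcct
Dusp1: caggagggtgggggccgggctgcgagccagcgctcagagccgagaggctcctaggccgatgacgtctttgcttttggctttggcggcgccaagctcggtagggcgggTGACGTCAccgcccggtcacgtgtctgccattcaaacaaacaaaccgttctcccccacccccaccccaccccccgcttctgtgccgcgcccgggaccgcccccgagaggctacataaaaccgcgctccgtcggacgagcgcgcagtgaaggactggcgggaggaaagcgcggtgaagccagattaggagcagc
The letters began 207 bases before the start in Nts, 69 in Plaur, 122 in Kcnip3 and 143 in Dusp1. Neither motif contains the other. Searched on both strands, AP-1 letters were in 5.20% of all 32851 windows of the table and the cAMP element in 1.79%. Among the genes named here that passed, AP-1 letters were also found in the promoters of Cxcl10, which fell, and of Cacng5, Npy1r, Slc7a1 and Syt2, which rose. The cAMP element was found in those of Cartpt and Pcsk1, which fell, and of Mapk10 and Scg2, which rose. With the printed windows, AP-1 letters were in 3 named genes that fell and 5 that rose, and the cAMP element in 3 and 2. Of the 171 named genes, passed or not, 124 had windows. A gene can have several windows, so these counts were not compared with the shares of all windows and do not show that the motifs are more frequent in named genes. Windows existed for 73.2% of the genes that rose and 65.0% of those that fell, under the 80% needed, so the shares of risen and fallen genes were not compared.

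The largest rises included a receptor, a peptide and a ligand of pain-sensing neurons. Mrgprd, a Mas-related receptor of nonpeptidergic nociceptors (ENSMUSG00000051207, chr7:145314835-145324086), had 54.4, 45.0, 55.4 and 44.5 CPM in A-Fos cultures 1 to 4, against 3.00, 4.67, 4.83 and 3.30 CPM in GFP cultures 1 to 4. All A-Fos cultures lay far above all GFP cultures, a rise of 12.6-fold (log2 3.66 ± 0.13, adjusted p = 2.44e-08). Alkal2, a ligand of the receptor tyrosine kinase ALK (ENSMUSG00000054204, chr12:30884322-30893854), had 34.8, 22.6, 27.8 and 20.6 CPM in A-Fos cultures 1 to 4, against 3.93, 4.75, 5.98 and 3.05 CPM in GFP cultures 1 to 4, a rise of 5.96-fold (log2 2.58 ± 0.15, adjusted p = 2.17e-06). Tac1, the precursor of substance P (ENSMUSG00000061762, chr6:7554879-7565834), had 112, 77.6, 96.4 and 41.0 CPM in A-Fos cultures 1 to 4, against 22.8, 20.1, 19.3 and 6.42 CPM in GFP cultures 1 to 4. Within each condition Tac1 was lowest in culture 4, yet the ranges did not overlap and the rise was 4.88-fold (log2 2.29 ± 0.10, adjusted p = 9.97e-08). Ptgir, the prostacyclin receptor (ENSMUSG00000043017, chr7:16906490-16910905), had 106, 80.3, 89.9 and 81.0 CPM in A-Fos cultures 1 to 4, against 25.1, 24.2, 19.2 and 18.6 CPM in GFP cultures 1 to 4, a rise of 4.10-fold without overlap (log2 2.04 ± 0.08, adjusted p = 9.58e-08).

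Rises of similar size were seen at lower levels. Chrna6, a nicotinic acetylcholine receptor subunit, averaged 10.2 ± 1.86 CPM in A-Fos cultures and 2.172 ± 0.341 CPM in GFP cultures (log2 2.22 ± 0.15), and Hoxd1, a homeobox transcription factor of nociceptors, averaged 12.2 ± 3.72 CPM in A-Fos cultures and 2.85 ± 0.434 CPM in GFP cultures (log2 2.06 ± 0.17). Chp2, a calcineurin B homologous protein, averaged 17.2 ± 2.49 CPM in A-Fos cultures and 3.37 ± 0.928 CPM in GFP cultures (log2 2.36 ± 0.20), and the glycolipid-synthesis gene A3galt2 averaged 8.07 ± 1.62 CPM in A-Fos cultures and 1.44 ± 0.546 CPM in GFP cultures (log2 2.49 ± 0.24). None of these 4 overlapped between conditions. The other large rises were in Mrgprx3-ps (3.03), Creg2 (2.23), the G protein subunit Gng8 (2.02), Ctxn3 (1.90), the muscarinic receptor Chrm2 (1.80), the bromodomain gene Cecr2 (1.61) and the potassium channel partner Kcnip2 (1.59). Mrgprx3-ps is a pseudogene in a family of near-identical copies, so how its reads were assigned is uncertain. Chrm2 was the only one of the 15 largest rises whose ranges overlapped.

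The 15 largest falls held 6 genes of the list that DRG neurons switch on after axon injury. Serpinb1a, an inhibitor of serine proteases (ENSMUSG00000044734, chr13:32842092-32851185), had 32.0, 46.3, 35.3 and 20.5 CPM in A-Fos cultures 1 to 4, against 261, 240.2, 177 and 107 CPM in GFP cultures 1 to 4. The highest A-Fos culture was under the lowest GFP culture, and the fall was 5.77-fold (log2 -2.53 ± 0.11, adjusted p = 8.07e-07). Nts, the precursor of neurotensin (ENSMUSG00000019890, chr10:102481756-102490486), had 6.47, 6.18, 7.86 and 2.22 CPM in A-Fos cultures 1 to 4, against 42.2, 28.9, 30.1 and 21.0 CPM in GFP cultures 1 to 4, a fall of 5.57-fold (log2 -2.48 ± 0.17, adjusted p = 3.68e-05). Sez6l, a membrane protein of neurons (ENSMUSG00000058153, chr5:112419151-112577185), had 23.6, 21.3, 25.7 and 18.1 CPM in A-Fos cultures 1 to 4, against 159, 146, 121 and 51.3 CPM in GFP cultures 1 to 4. GFP culture 4 was far under the other 3 GFP cultures but above every A-Fos culture (log2 -2.33 ± 0.19, adjusted p = 0.000268). Cckbr, a cholecystokinin receptor (ENSMUSG00000030898, chr7:105425731-105470898), had 1.28, 1.96, 2.11 and 1.49 CPM in A-Fos cultures 1 to 4, against 17.2, 19.3, 9.80 and 5.62 CPM in GFP cultures 1 to 4, with a fall of 7.09-fold (log2 -2.83 ± 0.27, adjusted p = 0.000229).

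Ecel1, a protease induced in damaged neurons, averaged 18.4 ± 6.14 CPM in A-Fos cultures and 60.8 ± 21.9 CPM in GFP cultures (log2 -1.70 ± 0.13), and Fam19a4, a secreted chemokine-like protein of C-fibre mechanoreceptors, averaged 5.00 ± 1.26 CPM in A-Fos cultures and 23.5 ± 8.93 CPM in GFP cultures (log2 -2.19 ± 0.17). The orphan receptor gene Gpr151 was low, at 1.04 ± 0.305 CPM in A-Fos cultures and 6.80 ± 2.81 CPM in GFP cultures, and fell by 2.67 ± 0.19. These 3 did not overlap between conditions. The remaining large falls were in the guidance gene Draxin (-2.05), the prokineticin receptor Prokr2 (-1.98), Gm16334 (-1.94), the TRAPP-like gene Trappc3l (-1.91), the matrix protein gene Tgfbi (-1.82), the small GTPase Rasd2 (-1.79), the myosin Myo1a (-1.61) and the matrix gene Tecta (-1.60). Tgfbi was the only one of the 15 whose ranges overlapped, and its call was not kept without culture 3 (adjusted p = 0.155).

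**Figure D3:**
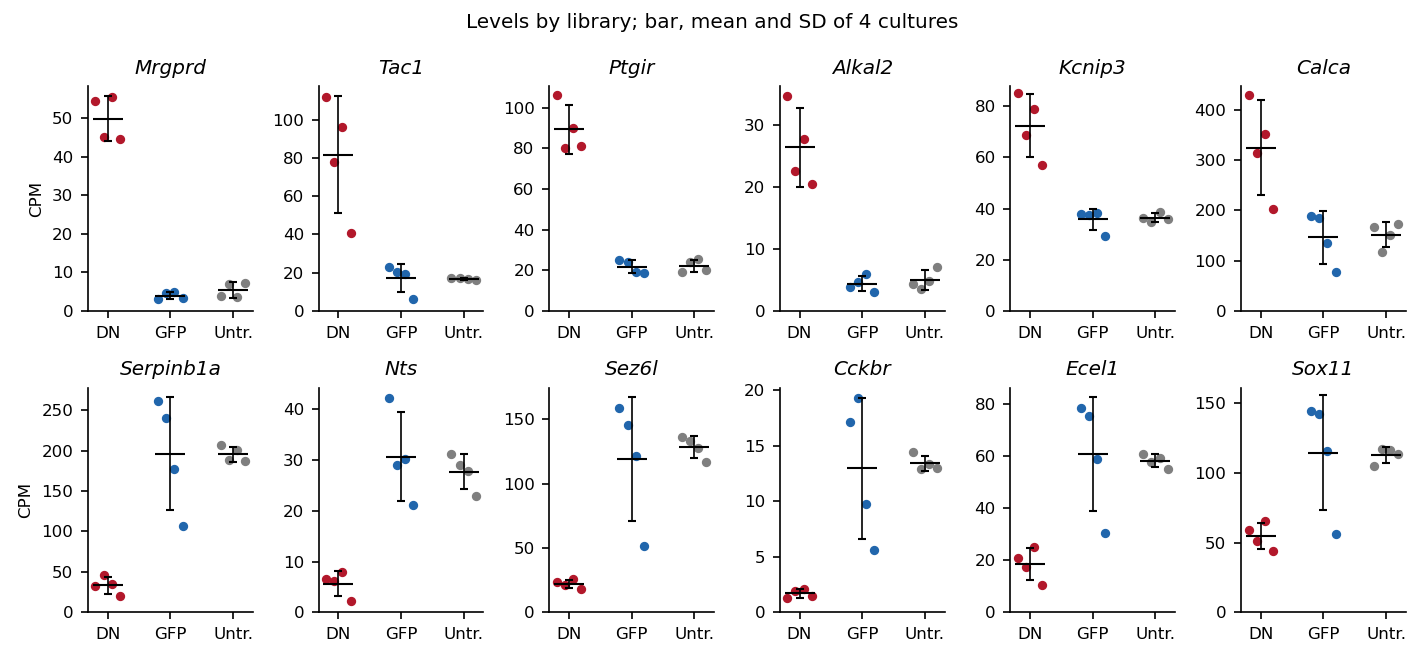
CPM (y axis, from 0) of 6 genes that rose (top row) and 6 that fell (bottom row) in each of 4 A-Fos (DN), 4 GFP and 4 untransduced (Untr.) cultures, with bars for the mean and SD. Mrgprd sits at 44.5 to 55.4 CPM in A-Fos and at 3.00 to 4.83 CPM in GFP, while Serpinb1a sits at 20.5 to 46.3 CPM in A-Fos and at 107 to 261 CPM in GFP.

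Untransduced cultures stood with the GFP cultures for these genes. Over the 30 largest rises and falls, the untransduced range overlapped the GFP range in 30 and the A-Fos range in 1. Mrgprd averaged 5.46 ± 2.00 CPM in untransduced cultures, Tac1 averaged 16.7 ± 0.447 CPM, Serpinb1a averaged 195 ± 9.64 CPM and Cckbr averaged 13.4 ± 0.695 CPM. These genes were taken for their difference between A-Fos and GFP, so the overlap is a description with no test.

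The peptidergic nociceptors, which release substance P and CGRP, gave the list with the highest share of rises. Of 28 genes tested, 15 rose and 3 fell (64.3% called, against 5.41% of all genes tested), with a median of 0.49. Their summed level was 790.5 to 1433 CPM in A-Fos cultures and 429 to 781 CPM in GFP cultures. Calca, the CGRP precursor (ENSMUSG00000030669, chr7:114631478-114636357), had 429, 313, 351 and 203 CPM in A-Fos cultures 1 to 4, against 188, 185, 134 and 76.8 CPM in GFP cultures 1 to 4. Calca was lowest in culture 4 of each condition and rose by 1.18 ± 0.10 (adjusted p = 3.68e-05, and 0.121 without the block). Trpa1, an irritant-gated channel, averaged 17.9 ± 4.404 CPM in A-Fos cultures and 7.81 ± 2.54 CPM in GFP cultures (log2 1.22 ± 0.13), and the prostaglandin E receptor Ptger1 averaged 36.2 ± 5.80 CPM in A-Fos cultures and 17.9 ± 4.83 CPM in GFP cultures (log2 1.04 ± 0.10). The 3 falls were in Prokr2, in Cartpt, a neuropeptide precursor (-1.29 ± 0.12), and in Gfra3, the artemin co-receptor (-0.73 ± 0.09). Rises and falls numbered 6 and 1 without the replicate block.

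Nonpeptidergic and itch genes followed with 13 rises and 2 falls of 31 tested (48.4% called, against 5.41% of all genes tested, median 0.44). Besides Mrgprd, the diacylglycerol kinase gene Dgkg averaged 41.8 ± 4.21 CPM in A-Fos cultures and 18.9 ± 3.09 CPM in GFP cultures (log2 1.15 ± 0.09) and Rasgrp1, a diacylglycerol-activated Ras activator, averaged 67.6 ± 13.99 CPM in A-Fos cultures and 32.5 ± 7.12 CPM in GFP cultures (log2 1.06 ± 0.09). Lpar3, a receptor for lysophosphatidic acid, averaged 18.3 ± 2.20 CPM in A-Fos cultures and 8.70 ± 1.40 CPM in GFP cultures (log2 1.07 ± 0.12), and the synaptic vesicle gene Synpr averaged 55.7 ± 11.2 CPM in A-Fos cultures and 27.3 ± 6.37 CPM in GFP cultures (log2 1.04 ± 0.09). These 4 and Cd55, a complement inhibitor (0.70 ± 0.06), did not overlap between conditions. The falls were in Nts and in Ret, the signalling receptor of the GDNF family, at 186 ± 22.7 CPM in A-Fos cultures and 324 ± 68.3 CPM in GFP cultures (log2 -0.78 ± 0.11). Rises and falls numbered 6 and 2 without the replicate block, 7 and 2 without culture 1, 8 and 3 without culture 3 and 8 and 2 without culture 4.

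Mechanoreceptor and proprioceptor genes moved less, with 5 rises and 2 falls of 28 tested (25% called, against 5.41% of all genes tested, median 0.08). Ntrk3, the receptor for neurotrophin-3, averaged 71.3 ± 24.0 CPM in A-Fos cultures and 52.96 ± 19.0 CPM in GFP cultures and rose by 0.44 ± 0.07 in ranges that overlapped. Piezo2, the touch channel, rose by 0.36 ± 0.06 (adjusted p = 0.00535, and 0.0631 without culture 1), and Fam19a4 and Calb1 fell, Calb1 by 1.34 ± 0.27 (adjusted p = 0.0709 without culture 1 and 0.0637 without culture 3). The counts were 0 and 1 without the replicate block, 1 and 1 without culture 1 and 3 and 2 without culture 4. Genes of pan-neuronal and sensory identity gave 7 rises and 7 falls of 33 (42.4% called, median 0.04). Slc17a6, the vesicular glutamate transporter, averaged 63.9 ± 10.96 CPM in A-Fos cultures and 137 ± 42.0 CPM in GFP cultures and fell by 1.06 ± 0.10. Prdm12, a nociceptor regulator, averaged 72.7 ± 15.2 CPM in A-Fos cultures and 44.6 ± 11.03 CPM in GFP cultures and rose by 0.72 ± 0.09, and the neuronal endosome gene Nsg2 rose by 0.80 ± 0.08 in overlapping ranges (adjusted p = 0.124 without the replicate block). Neither Slc17a6 nor Prdm12 overlapped between conditions, but without the replicate block neither passed (adjusted p = 0.0594 and 0.159). Counts of rises and falls in that list were 1 and 1 without the replicate block, 3 and 5 without culture 1 and 12 and 7 without culture 2.

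**Figure D4:**
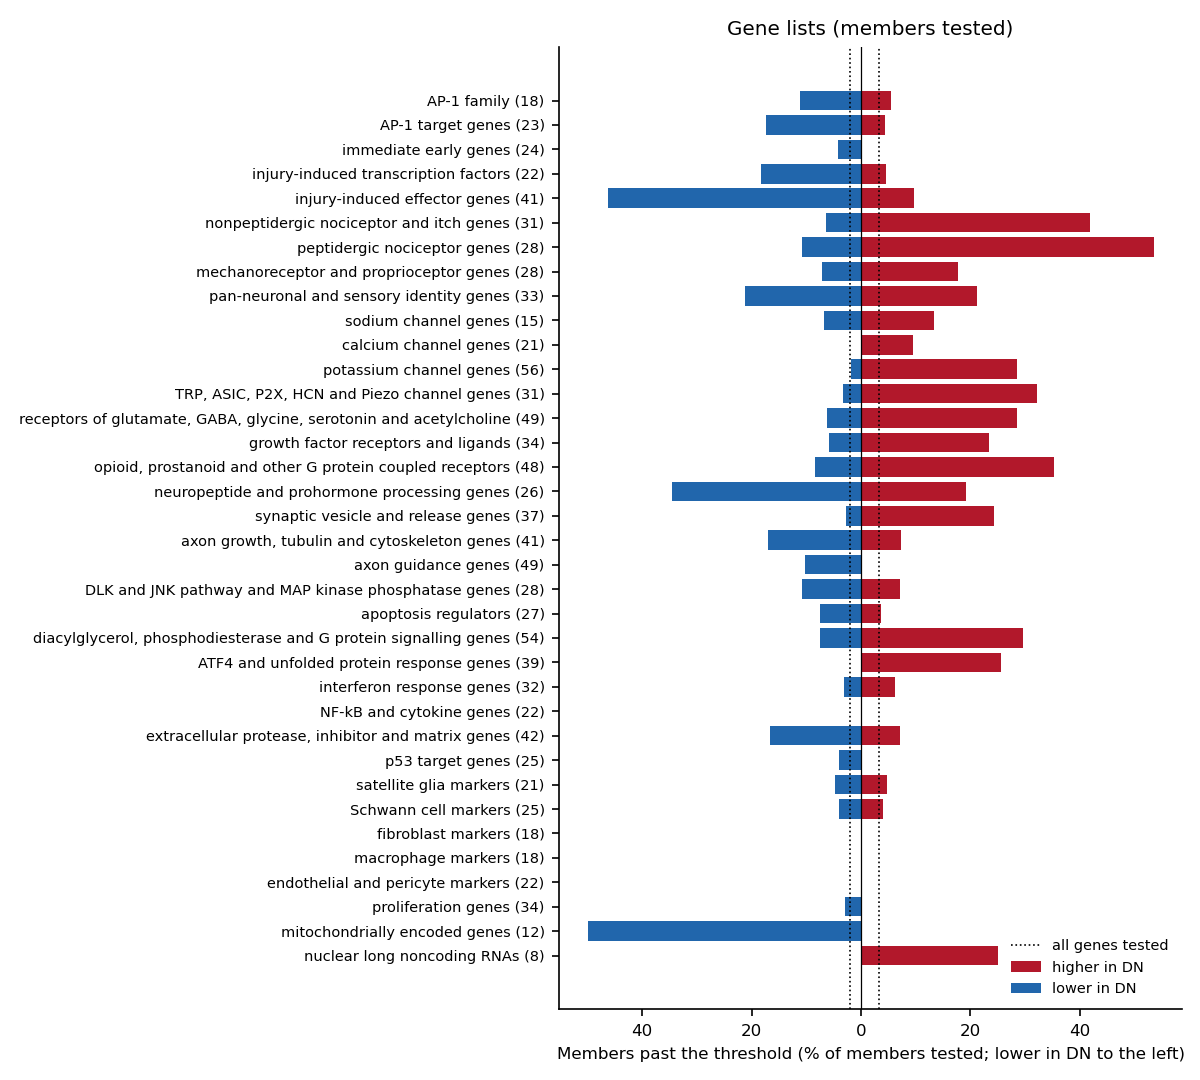
Percent of the tested members of each gene list (y axis, members tested in brackets) that were higher in A-Fos (red, to the right) or lower (blue, to the left), with dotted lines at the percent over all genes tested, 3.35% for rises and 2.07% for falls. The peptidergic list reaches furthest to the right, and the mitochondrially encoded and the injury effector lists furthest to the left.

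Growth factor receptors and ligands moved in both directions. Of 34 growth factor genes tested 8 rose and 2 fell (29.4% called, against 5.41% of all genes tested). These counts were 4 and 1 without the replicate block, and 5 and 2 without culture 1, 3 or 4. Besides Alkal2 and Ngfr, Kit, the stem cell factor receptor, averaged 84.6 ± 16.1 CPM in A-Fos cultures and 53.3 ± 3.59 CPM in GFP cultures and rose by 0.65 ± 0.08 without overlap. Ret and Gfra3 were the falls, whereas Gfra2, the neurturin co-receptor, rose by 0.28 ± 0.07 in overlapping ranges and did not pass without any of the 4 cultures in turn (adjusted p = 0.108, 0.0596, 0.101 and 0.0601).

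G protein coupled receptors of the opioid, prostanoid and peptide classes gave 17 rises and 4 falls of 48 tested (median 0.16). Their called share was 43.75%, against 5.41% of all genes tested. Of the prostanoid receptors, besides Ptgir and Ptger1, Ptger4 averaged 8.20 ± 1.48 CPM in A-Fos cultures and 3.71 ± 0.284 CPM in GFP cultures (log2 1.13 ± 0.14, no overlap), while Ptgfr rose by 0.77 ± 0.18 at 5.29 ± 1.76 CPM in A-Fos cultures and 3.26 ± 1.85 CPM in GFP cultures and was not kept without any culture (adjusted p = 0.0538, 0.0749, 0.0804 and 0.0804). Npy1r, a neuropeptide Y receptor, averaged 30.2 ± 13.9 CPM in A-Fos cultures and 12.3 ± 6.503 CPM in GFP cultures and rose by 1.33 ± 0.14 in ranges that overlapped. Oprm1, the mu opioid receptor, which was picked after its values were seen, had 22.4, 21.2, 21.1 and 11.9 CPM in A-Fos cultures 1 to 4, against 10.8, 12.5, 14.1 and 5.24 CPM in GFP cultures 1 to 4. It rose in each pair, by 0.88 ± 0.11 over all, but culture 4 was low in both conditions and the ranges overlapped (adjusted p = 0.000533, and 0.250 without the block). The cholecystokinin receptor genes both fell, Cckbr as above and Cckar by 1.23 ± 0.16 at 2.58 ± 1.12 CPM in A-Fos cultures and 5.98 ± 2.34 CPM in GFP cultures. Rises and falls in the list were 4 and 2 without the replicate block, 8 and 4 without culture 1 and 11 and 5 without culture 4.

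Among ion channels the rises were mostly in potassium channels and sensory transduction channels. Potassium channel genes gave 16 rises and 1 fall of 56 tested (30.4% called, against 5.41% of all genes tested, median 0.25). Kcnip3, an auxiliary subunit of A-type potassium channels (ENSMUSG00000079056, chr2:127456498-127522094), had 85.1, 68.8, 78.7 and 57.1 CPM in A-Fos cultures 1 to 4, against 37.9, 37.3, 38.3 and 29.4 CPM in GFP cultures 1 to 4. The conditions were apart, with a rise of 2.02-fold (log2 1.01 ± 0.07, adjusted p = 7.92e-06). Kcnd1, a pore subunit of the same channels, averaged 74.1 ± 13.5 CPM in A-Fos cultures and 39.0 ± 8.24 CPM in GFP cultures (log2 0.93 ± 0.10), and Kcnip2 averaged 11.7 ± 2.71 CPM in A-Fos cultures and 3.96 ± 1.53 CPM in GFP cultures (log2 1.59 ± 0.17), also without overlap. The leak channel gene Kcnk3 averaged 24.0 ± 9.98 CPM in A-Fos cultures and 12.003 ± 5.40 CPM in GFP cultures (1.03 ± 0.13) and the delayed rectifier gene Kcnb2 averaged 151 ± 30.0 CPM in A-Fos cultures and 96.8 ± 26.1 CPM in GFP cultures (0.66 ± 0.10). Kcnc2 rose by 1.23 ± 0.19 and Kcnh7 by 0.66 ± 0.08, Kcns3 by 0.56 ± 0.11 and Kcna2 by 0.32 ± 0.07, and without culture 1 Kcns3 and Kcna2 did not pass (adjusted p = 0.111 and 0.165), nor did Kcna2 without culture 4 (0.0529). Kcna5 had 1.71, 1.49, 0.574 and 0.638 CPM in the A-Fos cultures, against 0.124, 0, 0.0329 and 0 CPM in the GFP cultures, too near 0 for a fold change. Rises and falls numbered 4 and 0 without the replicate block, 9 and 0 without culture 1 and 10 and 3 without culture 4.

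Sensory transduction channels (TRP, ASIC, P2X, HCN and Piezo) gave 10 rises and 1 fall of 31 tested (median 0.27). Their called share was 35.5%, against 5.41% of all genes tested. Asic1 and Asic3, acid-sensing channel subunits, moved in opposite directions. Asic1 had 20.01, 11.8, 12.9 and 12.8 CPM in the A-Fos cultures, against 5.79, 4.28, 5.95 and 3.12 CPM in the GFP cultures, a rise of 1.59 ± 0.15 (adjusted p = 6.57e-05). Asic3 had 6.55, 9.87, 7.83 and 4.95 CPM in the A-Fos cultures, against 20.2, 14.8, 15.3 and 13.01 CPM in the GFP cultures, a fall of 1.13 ± 0.15 (adjusted p = 0.000816). Neither overlapped between conditions. Trpm8, the cold and menthol channel, rose by 1.52 ± 0.28 at 13.9 ± 5.81 CPM in A-Fos cultures and 4.76 ± 2.08 CPM in GFP cultures, and Trpv1, the capsaicin receptor, rose by 0.52 ± 0.08 at 81.7 ± 21.3 CPM in A-Fos cultures and 56.3 ± 10.8 CPM in GFP cultures, in ranges that overlapped for each. Trpc1 rose by 0.35 ± 0.07 and P2rx3, the ATP-gated channel of nociceptors, by 0.54 ± 0.11. Trpc1 was not kept without culture 1 or 3 (adjusted p = 0.135 and 0.0591), nor P2rx3 without culture 1, 3 or 4 (adjusted p = 0.1003, 0.0799 and 0.0804). The counts were 2 and 1 without the replicate block, 4 and 1 without culture 1 and 5 and 1 without culture 3.

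Among voltage-gated channels 3 of 15 sodium and 2 of 21 calcium channel genes passed (9.52% of the calcium channel genes, and a larger share of the sodium ones, against 5.41% of all genes tested). At that share, lists of 15 and 21 would also hold few calls. Of 15 sodium channel genes 2 rose and 1 fell (0 and 0 without the replicate block and 4 and 1 without culture 2). The auxiliary subunit Scn2b averaged 72.7 ± 8.06 CPM in A-Fos cultures and 48.4 ± 8.89 CPM in GFP cultures and rose by 0.60 ± 0.07 without overlap. Scn11a, the nociceptor channel Nav1.9, rose by 0.50 ± 0.12 and Scn4b fell by 0.25 ± 0.06. Scn11a was not kept without culture 1, 3 or 4 (adjusted p = 0.111, 0.0933 and 0.0677) and Scn4b not without culture 1 or 3 (adjusted p = 0.146 and 0.258). Of 21 calcium channel genes 2 rose and none fell, namely Cacng5 (1.54 ± 0.30, adjusted p = 0.0774 without culture 1) and Cacna1e (0.47 ± 0.12, adjusted p = 0.162, 0.183 and 0.126 without culture 1, 3 or 4). Calcium channel counts were 0 and 0 without the replicate block, 0 and 0 without culture 1 and 8 and 0 without culture 2.

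Transmitter receptors rose in several classes, with 14 rises and 3 falls of 49 tested (34.7% called, against 5.41% of all genes tested, median 0.28). Nicotinic subunits were prominent, with Chrna6 as above, Chrnb3 at 4.14 ± 1.14 CPM in A-Fos cultures and 0.888 ± 0.612 CPM in GFP cultures (log2 2.36 ± 0.37) and Chrna7 at 14.3 ± 2.94 CPM in A-Fos cultures and 7.80 ± 2.42 CPM in GFP cultures (log2 0.89 ± 0.12). Grin1, the obligatory NMDA receptor subunit, averaged 42.5 ± 10.5 CPM in A-Fos cultures and 21.8 ± 5.10 CPM in GFP cultures and rose by 0.96 ± 0.09. Grm4, a metabotropic glutamate receptor, rose by 0.86 ± 0.12, Htr1a, a serotonin receptor, rose by 1.46 ± 0.22, and none of these 6 overlapped. Chrm2 rose by 1.80 ± 0.26 in overlapping ranges, at 4.42 ± 1.99 CPM in A-Fos cultures and 1.36 ± 0.886 CPM in GFP cultures. Gabra2, a GABA-A receptor subunit, fell by 0.66 ± 0.08 at 20.7 ± 3.69 CPM in A-Fos cultures and 33.0 ± 8.09 CPM in GFP cultures. These counts came to 5 and 0 without the replicate block and 9 and 3 without culture 1.

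Effector genes induced by axon injury showed the opposite balance of calls to the nociceptor lists. Of 41 effector genes tested 19 fell and 4 rose (56.1% called, against 5.41% of all genes tested, median -0.23). Besides Serpinb1a, Nts, Sez6l, Cckbr, Ecel1 and Gpr151, Flrt3, an adhesion protein, had 55.5, 53.6, 56.9 and 54.8 CPM in the A-Fos cultures, against 116, 119, 103 and 86.5 CPM in the GFP cultures. The conditions did not overlap and the fall was 1.91-fold (log2 -0.93 ± 0.08, adjusted p = 3.68e-05). Npy, neuropeptide Y, was low in every culture, with 0.0533, 0.238, 0.121 and 0.517 CPM in the A-Fos cultures, against 2.63, 1.86, 2.14 and 5.52 CPM in the GFP cultures, and fell without overlap (log2 -3.78 ± 0.38, adjusted p = 9.88e-05). Gadd45a, a stress gene, averaged 24.6 ± 2.86 CPM in A-Fos cultures and 38.7 ± 4.68 CPM in GFP cultures (log2 -0.65 ± 0.10), and Sema6a, a semaphorin, averaged 91.2 ± 4.405 CPM in A-Fos cultures and 138 ± 26.4 CPM in GFP cultures (log2 -0.58 ± 0.11, adjusted p = 0.0838 without culture 1). The rises in this list included Ngfr, and the members that did not pass lay at -2.28 to 0.41. Rises and falls numbered 2 and 13 without the replicate block, 7 and 21 without culture 2 and 2 and 20 without culture 4.

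The injury-induced transcription factors gave 4 falls and 1 rise of 22 tested (22.7% called, against 5.41% of all genes tested). Their median was 0.12, with 14 members above 0 and 8 below, so the list did not fall as a whole. Sox11, a factor of growing neurons (ENSMUSG00000063632, chr12:27334264-27342574), had 58.9, 50.9, 65.6 and 44.1 CPM in A-Fos cultures 1 to 4, against 144, 142, 116 and 56.1 CPM in GFP cultures 1 to 4. It was lower in A-Fos in every pair and overlapped only through GFP culture 4 (log2 -0.99 ± 0.16, adjusted p = 0.00958, and 0.105 without the block). The other falls were in Atf3, Fosl1 and Smad1, a BMP signal transducer (-0.35 ± 0.08, adjusted p = 0.207, 0.0517 and 0.0623 without culture 1, 2 or 3). Atf5 had the rise, at 342 ± 42.8 CPM in A-Fos cultures and 221 ± 26.8 CPM in GFP cultures (log2 0.63 ± 0.09, no overlap). Rises and falls in this list came to 1 and 0 without the replicate block and 6 and 5 without culture 2.

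Axon growth and cytoskeleton genes fell more often than they rose, with 7 falls and 3 rises of 41 tested (median -0.14). Their called share was 24.4%, against 5.41% of all genes tested. Tubb3 (ENSMUSG00000062380, chr8:123411424-123422015) had 688, 578, 644 and 480.0 CPM in A-Fos cultures 1 to 4, against 1142, 1155, 1017 and 736 CPM in GFP cultures 1 to 4. The lowest GFP culture stayed above the highest A-Fos culture, and the fall was 1.68-fold (log2 -0.75 ± 0.08, adjusted p = 0.000112). Gap43, a growth cone protein, averaged 40.0 ± 9.98 CPM in A-Fos cultures and 74.5 ± 29.6 CPM in GFP cultures (log2 -0.85 ± 0.13), Stmn2, a tubulin-binding protein, averaged 282 ± 55.0 CPM in A-Fos cultures and 460.5 ± 121 CPM in GFP cultures (log2 -0.69 ± 0.08), and Stmn4 fell by 0.97 ± 0.13. Nefl, the light neurofilament, fell by 0.53 ± 0.07 and Tubb4a by 0.44 ± 0.07. These 5 overlapped between conditions and did not pass without the block (adjusted p = 0.236 for Gap43, 0.159 for Stmn2, 0.268 for Stmn4, 0.200 for Nefl and 0.312 for Tubb4a). The rises were in Prph, in Coro1a, an actin-binding protein, at 85.2 ± 18.7 CPM in A-Fos cultures and 45.8 ± 7.69 CPM in GFP cultures (log2 0.89 ± 0.09, no overlap), and in Mapt, the tau gene, by 0.47 ± 0.09 (adjusted p = 0.0551 without culture 1). In this list the rises and falls were 1 and 1 without the replicate block and 1 and 6 without culture 1.

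Of 49 axon guidance genes none rose and 5 fell (10.2% called, against 5.41% of all genes tested, median 0.03). At the 3.35% of all genes tested that rose, a list of 49 would also hold few rises. The falls were in Draxin, Flrt3, Sema6a, Unc5d and Sema4f. Draxin had 3.25, 3.86, 3.14 and 2.67 CPM in the A-Fos cultures, against 18.8, 16.6, 16.9 and 5.17 CPM in the GFP cultures. Even with the low GFP culture 4 the conditions did not overlap (log2 -2.05 ± 0.22, adjusted p = 0.000400). Unc5d fell by 1.02 ± 0.19 at 2.03 ± 0.813 CPM in A-Fos cultures and 4.04 ± 1.17 CPM in GFP cultures, and not without culture 1 (adjusted p = 0.0648). Sema4f fell by 0.30 ± 0.07, and not without culture 1, 3 or 4 (adjusted p = 0.239, 0.190 and 0.0581). The counts, rises first, were 0 and 3 without the replicate block and 0 and 2 without culture 1.

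Neuropeptides and their processing moved in both directions, with 5 rises and 9 falls of 26 tested (median -0.16). Their called share was 53.8%, against 5.41% of all genes tested. Tac1 and Calca rose while Nts, Npy and Cartpt fell. Pcsk1, the convertase that cuts prohormones, had 14.6, 10.97, 12.7 and 9.03 CPM in the A-Fos cultures, against 29.1, 24.6, 22.1 and 18.1 CPM in the GFP cultures. Its ranges were apart, with a fall of 1.99-fold (log2 -0.99 ± 0.09, adjusted p = 7.19e-05). The granule proteins rose, Scg3 at 289.8 ± 43.1 CPM in A-Fos cultures and 157 ± 34.3 CPM in GFP cultures (log2 0.90 ± 0.10, no overlap) and Scg2 at 138 ± 40.1 CPM in A-Fos cultures and 96.8 ± 31.4 CPM in GFP cultures (log2 0.52 ± 0.08, overlap, adjusted p = 0.554 without the block). Other settings changed these counts to 2 and 4 without the replicate block and 5 and 5 without culture 1.

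Synaptic vesicle and release genes gave 9 rises and 1 fall, Slc17a6, of 37 tested (27.0% called, against 5.41% of all genes tested, median 0.14). Cplx2, a complexin that holds vesicles ready, averaged 98.4 ± 8.25 CPM in A-Fos cultures and 67.6 ± 7.43 CPM in GFP cultures (log2 0.54 ± 0.06), and the priming factor gene Cadps2 averaged 12.3 ± 1.78 CPM in A-Fos cultures and 6.80 ± 0.559 CPM in GFP cultures (log2 0.85 ± 0.11), both without overlap. Sv2a rose by 0.91 ± 0.11, Sv2b by 0.53 ± 0.07, Nrxn3 by 0.56 ± 0.10, Syt2 by 0.51 ± 0.06 and Syp by 0.40 ± 0.07, all in overlapping ranges, and Syp was not kept without culture 1 (adjusted p = 0.0648). For release genes the rises and falls were 2 and 0 without the replicate block.

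Signalling through diacylglycerol and G proteins gave 16 rises and 4 falls of 54 tested (37.0% called, against 5.41% of all genes tested, median 0.14). Rasgrp1 and Dgkg led, and the other diacylglycerol kinases Dgkz and Dgki averaged 322 ± 34.0 against 210.3 ± 23.0 CPM (A-Fos against GFP, log2 0.62 ± 0.07) and 107 ± 12.1 against 61.2 ± 16.3 CPM (log2 0.85 ± 0.12). The kinase gene Prkcd averaged 167 ± 18.0 CPM in A-Fos cultures and 118 ± 11.2 CPM in GFP cultures (log2 0.50 ± 0.06), and Rgs9, which speeds the shut-off of G proteins, averaged 80.0 ± 12.4 CPM in A-Fos cultures and 43.5 ± 3.32 CPM in GFP cultures (log2 0.87 ± 0.10). None of these 4 overlapped between conditions. The G protein subunit Gnao1 rose by 0.57 ± 0.08 and the phospholipase Plcb1 by 0.85 ± 0.14, whereas Rasd2 fell by 1.79 ± 0.30 at 2.76 ± 1.10 CPM in A-Fos cultures and 9.88 ± 4.39 CPM in GFP cultures. Here the counts became 5 and 0 without the replicate block and 11 and 1 without culture 1.

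Genes of the ATF4 program and the unfolded protein response, which cells switch on under stress, gave 10 rises and 0 falls of 39 tested (median 0.19). Their called share was 25.6%, against 5.41% of all genes tested. Slc7a5, a transporter of large neutral amino acids, had 232, 194, 211 and 197 CPM in the A-Fos cultures, against 114, 123, 112 and 110.0 CPM in the GFP cultures. The 2 ranges were well apart and the rise was 1.81-fold (log2 0.86 ± 0.07, adjusted p = 2.75e-05). Atf5 and Slc7a1, a cationic amino acid transporter at 288 ± 28.4 CPM in A-Fos cultures and 191 ± 30.7 CPM in GFP cultures (log2 0.60 ± 0.09), did not overlap either, while Chac1, a glutathione-degrading enzyme (0.69 ± 0.11), and Slc7a3 (0.77 ± 0.14) did. Aldh1l2, Asns and Shmt2 rose by 0.55 ± 0.11, 0.37 ± 0.08 and 0.33 ± 0.07, and none of the 3 was kept without culture 1, 3 or 4. Their adjusted p without culture 1 was 0.0946, 0.163 and 0.170, without culture 3 it was 0.0641, 0.0649 and 0.110, and without culture 4 it was 0.0770, 0.0804 and 0.0819. Members that did not pass lay at -0.18 to 0.43. Rises were 3 without the block, 5 each without culture 1, 3 or 4, and 20 without culture 2.

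The kinase pathway upstream of Jun (DLK, JNK and their phosphatases) gave 2 rises and 3 falls of 28 (17.9% called, against 5.41% of all genes tested). Dusp26 rose by 0.75 ± 0.08 at 59.3 ± 12.9 CPM in A-Fos cultures and 35.0 ± 6.70 CPM in GFP cultures, and Dusp1 fell. Mapk10, the neuronal JNK3, rose by 0.33 ± 0.09, the JNK scaffold gene Mapk8ip1 fell by 0.36 ± 0.09 and Sarm1, an axon degeneration enzyme, fell by 0.36 ± 0.09. Mapk10 was not kept without culture 1, 3 or 4 (adjusted p = 0.225, 0.112 and 0.192). Mapk8ip1 was not kept without culture 1, 2 or 4 (adjusted p = 0.196, 0.0783 and 0.0887), nor Sarm1 without culture 1, 2 or 3 (adjusted p = 0.275, 0.106 and 0.0748). The list's rises and falls were 0 and 1 without the replicate block, 1 and 1 without culture 1 and 6 and 2 without culture 2. Of 27 apoptosis regulators 3 passed (11.1%). Bid rose by 0.70 ± 0.11, and Hrk, at 2.30 ± 0.363 CPM in A-Fos cultures and 4.66 ± 0.965 CPM in GFP cultures, fell by 1.01 ± 0.19, both without overlap. Trp53, which encodes p53, fell by 0.31 ± 0.07 (adjusted p = 0.195 without culture 1 and 0.0678 without culture 3). Of 25 p53 target genes only Gadd45a passed (4%, near the share of all genes tested).

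The interferon and matrix lists held a larger share of calls than all genes tested (5.41%), and the NF-kB and cytokine list held 0. Of 22 NF-kB and cytokine genes 0 passed in edgeR's quasi-likelihood test and 0 in DESeq2's, with 2 at an unadjusted p under 0.05, and 0 passed without the block or without a culture. At the share of all genes tested, a list of 22 would also hold few calls. Of 32 interferon response genes 3 passed (9.38%), where the share of all genes tested would also give few. Stat2 rose by 0.55 ± 0.08 without overlap. Cxcl10 fell by 0.37 ± 0.07 (adjusted p = 0.0835 without culture 1), and Ifit1 rose by 0.78 ± 0.20 but was lost without any culture in turn (adjusted p = 0.0774 to 0.172). Protease, inhibitor and matrix genes gave 3 rises and 7 falls of 42 (23.8% called), and the rises were in the metalloprotease family genes Adam11 (0.56 ± 0.08), Adamts8 (0.88 ± 0.15) and Adam22 (0.47 ± 0.09, adjusted p = 0.0800 without culture 1 and 0.0507 without culture 4). Tecta averaged 12.4 ± 3.90 CPM in A-Fos cultures and 38.9 ± 15.4 CPM in GFP cultures and Tgfbi 7.76 ± 3.92 CPM in A-Fos cultures and 28.7 ± 15.3 CPM in GFP cultures. Rises and falls in that list were 0 and 3 without the replicate block, 2 and 4 without culture 1 and 3 and 3 without culture 3.

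Transcripts made from mitochondrial DNA were lower in A-Fos than in GFP cultures. Of 12 tested 6 fell and none rose (50% called, against 5.41% of all genes tested). The median was -0.54, and the other members lay at -0.56 to -0.05. The cytochrome b gene mt-Cytb had 212, 204, 249.8 and 192 CPM in A-Fos cultures 1 to 4, against 367, 413, 304 and 393 CPM in GFP cultures 1 to 4. The ranges did not overlap and the fall was 1.72-fold (log2 -0.78 ± 0.11, adjusted p = 0.00229). The complex I gene mt-Nd1 averaged 69.7 ± 9.87 CPM in A-Fos cultures and 111 ± 11.99 CPM in GFP cultures (log2 -0.68 ± 0.11), and the 3 genes mt-Atp6, mt-Nd3 and mt-Co3 fell by 0.75, 0.80 and 0.58, also without overlap. Without culture 1 these 3 did not pass (adjusted p = 0.0615, 0.141 and 0.137), nor did mt-Co3 without culture 4 (0.0843). The abundant mt-Co1 averaged 1639 ± 134 CPM in A-Fos cultures and 2183 ± 263 CPM in GFP cultures and fell by 0.41 ± 0.10, but not without culture 1, 2 or 4 (adjusted p = 0.230, 0.0794 and 0.128). Untransduced cultures averaged 294 ± 22.9 CPM for mt-Cytb, between the conditions, and 1689 ± 106 CPM for mt-Co1, near the A-Fos mean. Summed over the list, levels were 1958 to 2382 CPM in A-Fos, 2423 to 3217 CPM in GFP and 2136 to 2498 CPM in untransduced cultures. The untransduced range thus overlapped both, and whether A-Fos or GFP cultures departed from it was not tested. The count of rises and falls was 0 and 2 without culture 1 and 0 and 10 without culture 3. The list's median was -0.33 in the plain set and 0.15 in the 7DIV set. Of 8 nuclear long noncoding RNAs (25% called) Miat rose by 0.33 ± 0.08 and Snhg11 by 0.30 ± 0.08. Neither was kept without culture 1, 3 or 4 (adjusted p = 0.209, 0.150 and 0.0947 for Miat, and 0.275, 0.208 and 0.0868 for Snhg11).

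Few markers of the other cells in the cultures passed, 9.52% of satellite glia and 8% of Schwann cell markers, against 5.41% of all genes tested. At that share, lists of 21 and 25 would also hold few calls. Of 21 satellite glia markers Aldoc rose by 0.80 ± 0.14 and Glul, glutamine synthetase, fell by 0.34 ± 0.08 (adjusted p = 0.261 without culture 1 and 0.0724 without culture 2). Of 25 Schwann cell markers S100b had 28.1, 27.9, 26.7 and 23.2 CPM in the A-Fos cultures, against 37.1, 35.8, 38.8 and 39.9 CPM in the GFP cultures and fell without overlap (log2 -0.52 ± 0.08), and Ngfr, which neurons also express, rose. Of 18 fibroblast, 18 macrophage and 22 endothelial and pericyte markers 0 passed in edgeR's test, against 4, 3 and 3 at an unadjusted p under 0.05 and 0, 1 and 1 in DESeq2. Lists this short would hold few calls at the share of all genes tested. Leaving out culture 2 gave 2 falls among fibroblast and 3 among endothelial and pericyte markers, and leaving out culture 3 gave 1 rise among the endothelial and pericyte ones. Only 2 of 17 blood cell markers passed the filter on low counts, and 0 of these reached even an unadjusted p under 0.05. Summed levels were 9442 to 14355 CPM in A-Fos cultures and 9265 to 13829.6 CPM in GFP cultures for fibroblast markers and 107 to 126 CPM in A-Fos cultures and 95.9 to 172 CPM in GFP cultures for macrophage markers. The defining macrophage marker Aif1 and the blood markers Hbb-bs, Cd3e and S100a8 were below the filter on low counts. Of 34 proliferation genes Ube2c fell by 0.39 ± 0.10 (2.94% called), and not without culture 1, 3 or 4 (adjusted p = 0.263, 0.209 and 0.176), while without culture 2 the falls numbered 5.

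The plain and 7DIV sets share no library with the dated one, so they measure the same contrast separately. Of the 943 genes called here, 939 were tested in the plain set, 907 moved the same way there (96.6%) and 740 were called in the same direction, against 2 in the opposite one. Those 740 were 78.5% of the dated calls and 20.5% of the 3617 plain calls (20.9% of the 17318 genes tested there). In the 7DIV set 942 were tested, 774 moved the same way (82.2%), 401 were called in the same direction and 8 in the opposite one. Those 401 were 42.5% of the dated calls and 46.9% of the 855 7DIV calls (4.75% of 17987 tested). Without culture 1 the genes called the same way numbered 332 in the plain set and 238 in the 7DIV set, and without culture 3 481 in the plain set. In total 391 genes were called in the same direction in all 3 sets. Mrgprd rose by 4.91 ± 0.43 in the plain set and 2.91 ± 0.12 in the 7DIV set, and Serpinb1a changed by -3.71 ± 0.07 and -2.12 ± 0.13. All 30 of the largest rises and falls kept their direction in the other sets, 29 passed in the plain set and 28 in the 7DIV set.

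**Figure D5:**
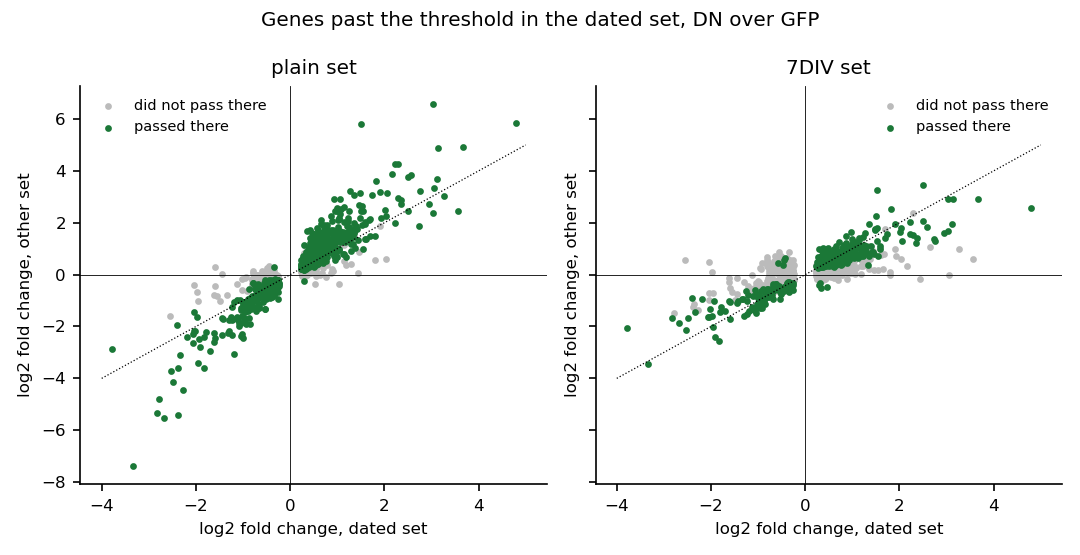
Log2 fold change of A-Fos (DN) over GFP in the plain set (left, y axis) and the 7DIV set (right, y axis) against that in the dated set (x axis, both panels) for genes past the threshold in the dated set, with genes that also passed in the other set in green and a dotted line of equal change. In the plain set 740 genes passed in the same direction and in the 7DIV set 401.

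Whether a change differed in size was tested over the 20 A-Fos and GFP libraries of the 3 sets. Against the mean of the other sets, 100 of 19439 genes passed (0.514%), 12 with a higher log2 fold change in the dated set and 88 with a lower one, and 61 of them were also called in the dated set. Against the plain set alone 225 passed (1.16%, 42 higher and 183 lower), and against the 7DIV set alone 164 (0.844%, 32 higher and 132 lower). Without the replicate block edgeR's test called 0, 7 and 14 genes in these 3 tests, with 1670, 1366 and 2236 at an unadjusted p under 0.05, and DESeq2 with the block called 253, 349 and 454. Leaving out culture 2 or culture 3 gave 32 genes in the first test, and in the test against the 7DIV set 101, 102 and 91 passed without culture 1, 3 and 4.

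Rasgrp1, Acpp, Trarg1 and Dgkg had smaller log2 fold changes here than the mean of the plain and 7DIV sets. Rasgrp1 rose by 1.06 ± 0.09 in the dated set, against 2.92 ± 0.12 in the plain set and 1.27 ± 0.09 in the 7DIV set, a difference from the mean of the others of -1.03 ± 0.13 (adjusted p = 0.00211). The difference from the plain set was -1.85 (adjusted p = 9.98e-06) and that from the 7DIV set -0.20 (adjusted p = 0.583). Acpp, a phosphatase of nonpeptidergic neurons, averaged 143 ± 21.8 CPM in A-Fos cultures and 71.8 ± 14.2 CPM in GFP cultures and rose by 1.00 ± 0.08, against 2.57 ± 0.09 and 1.19 ± 0.09 (difference -0.87 ± 0.12, adjusted p = 0.00397). Trarg1 averaged 539.7 ± 102 CPM in A-Fos cultures and 295 ± 45.1 CPM in GFP cultures and rose by 0.87 ± 0.09, against 2.27 ± 0.06 and 1.06 ± 0.10 (difference -0.79 ± 0.11, adjusted p = 0.00397). Dgkg had a difference of -0.80 ± 0.12 (adjusted p = 0.00637). For Acpp, Trarg1 and Dgkg the difference given is that from the mean of the other sets.

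Ptma and S100a6 had lower log2 fold changes here than in the other sets. Ptma, which encodes prothymosin alpha, had 116, 119, 123 and 109 CPM in A-Fos cultures 1 to 4, against 153, 175, 152 and 159 CPM in GFP cultures 1 to 4. It fell without overlap, by 0.45 ± 0.06, against changes of 0.16 ± 0.06 and 0.31 ± 0.09 in the plain and 7DIV sets that did not pass there (difference -0.68 ± 0.09, adjusted p = 0.00211). S100a6, a calcium-binding protein, averaged 176 ± 17.3 CPM in A-Fos cultures and 255 ± 17.8 CPM in GFP cultures and fell by 0.54 ± 0.07, against -0.21 ± 0.06 in the plain set, which passed there, and 0.34 ± 0.09 in the 7DIV set, which did not (difference -0.59 ± 0.09, adjusted p = 0.00637). The labels used here give a time in culture only for the 7DIV set, so the set and the time in culture cannot be told apart.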

How the data were processed

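Whole-number read counts per gene were deposited by the authors as 1 table of 48795 Ensembl gene IDs for all 30 libraries. Per the submitters' processing notes these came from bcl2fastq 2.17, STAR and HTSeq on GRCm38 (mm10), and per the labels' protocols RNA was purified with an RNeasy Micro kit and made into TruSeq libraries. No source used here gives the counting settings, the use of strand or the annotation release, so overlapping and antisense genes cannot be told apart. Symbols and coordinates were taken from GENCODE M21 for 48435 IDs. A table of repeat intervals was not used here.

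The 8 dated A-Fos and GFP libraries were fitted with edgeR 4.0.16 (R 4.3.3): filterByExpr, TMM scaling, robust quasi-likelihood fit of culture number plus condition, 2-sided, Benjamini-Hochberg over all genes tested. The SE was taken from the log2 fold change and F. CPM used TMM over the 12 dated libraries. The difference between sets was an interaction contrast over 20 libraries. Promoters were RefSeq windows. The pipeline was tested on simulated counts.

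The pairing comes from the series' design, in which each mouse's culture was divided between conditions, and rests on equal numbers marking 1 mouse. Same-numbered libraries correlated in their deviations from the group means by 0.26, 0.04, 0.08 and 0.34 for numbers 1 to 4, so 2 of 4 were under 0.1. Numbers 1 and 4 matched their own number best, while 2 matched 3 best and 3 matched 2.

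The samples, the gene lists and the tests were chosen with earlier results of these data known. Genes named are the 15 largest rises and 15 largest falls (mean of at least 1 log2 CPM, same direction in 4 of 4 pairs), the AP-1 family, up to 8 called members of each of 37 lists by p, the 6 smallest p for the effect and the 6 for its difference between sets. Some genes that this rule names are not reported here. DESeq2 1.42.0, other scalings and filters, no block and leaving out each culture were tried as alternatives. P-values with the block measure the spread of the A-Fos to GFP difference over culture numbers, which were taken to mark separate mice. Without the block they measure the spread between cultures of a condition.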

Additional observations from a re-analysis of the deposited data

Results flagged for a closer look

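In groups of 4 cultures, a value was marked where its gap to the nearest other culture, divided by the group's whole range, was above Dixon's 95% critical value for 4 samples. Over 342 groups of named genes 23 were marked, where chance gives about 17.1 (1 in 20 groups). GFP culture 4 gave 12 of these and A-Fos culture 4 gave 2. Among A-Fos cultures the ratio was 0.877 for Timp1 and 0.874 for Oprm1 (culture 4 highest and lowest), 0.873 for Asic1 and 0.928 for Gfra2 (culture 1 highest and lowest), and 0.931 for Atf7 (culture 2 lowest). The total counts of the A-Fos libraries gave 0.939, with culture 1 highest.

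Among GFP cultures, culture 4 was lowest for Kcnip3 (0.888), Kcnk3 (0.870), Sv2a (0.881), Nrxn3 (0.909), Syp (0.913), Draxin (0.844), Unc5d (0.862), Adam22 (0.938), Miat (0.933) and Snhg11 (0.927), and highest for Tgfb1 (0.830) and Trp53 (0.961). Culture 2 was highest for Fos (0.862), Jund (0.870) and Trpm8 (0.892). Culture 1 was highest for Sv2b (0.865) and Creg2 (0.889), and culture 3 lowest for mt-Nd1 (0.857).

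Of the named genes, 14 had a change that differed between the dated set and the mean of the plain and 7DIV sets in edgeR's interaction test over 20 libraries. The difference in log2 fold change was negative for Mrgprx3-ps (-1.721), Rasgrp1 (-1.026), Acpp (-0.871), Dgkg (-0.802), Trarg1 (-0.794), Lpar3 (-0.708), Ptma (-0.680), Prdm12 (-0.641), S100a6 (-0.594), Gfra2 (-0.545), Nrxn3 (-0.539) and Synpr (-0.529). It was positive for Chrm2 (1.464) and Cplx2 (0.412). Against the plain set alone Chrm2 differed by 1.24 (adjusted p = 0.0843) and against the 7DIV set by 1.69 (adjusted p = 0.0163). Without the replicate block edgeR's interaction test called 0 genes, with 1670 at an unadjusted p under 0.05, while DESeq2 with the block called 253.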

How the results depend on the processing

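Without the replicate block 262 genes passed (141 rose and 121 fell, 54 and 45 at least 2-fold), 199 were called the same way in the plain set and 133 in the 7DIV set, and the differences between sets gave 0 genes against the other sets, 7 against the plain set and 14 against the 7DIV set. With no filter on low counts these became 1548 genes (977 rose and 571 fell), 1142, 669, 500, 524 and 740. DESeq2 with the block called 253, 349 and 454 genes in the tests between sets. Leaving out a culture gave 380 to 1212 calls (240 to 842 that rose and 140 to 370 that fell, 76 to 131 and 45 to 81 at least 2-fold), 332 to 996 called the same way in the plain set and 238 to 454 in the 7DIV set. Those tests between sets gave 32 to 117, 151 to 256 and 91 to 167 genes. Counts of calls were lowest without culture 1, and the test against the other sets was lowest without culture 2 or 3. Of the 157 named genes that passed, 69 did so under every alternative and 117 under all but the fit without the block. The calls lost numbered 83 without the block, 39 without culture 1, 8 without culture 2, 24 without culture 3, 22 without culture 4, 3 with the stricter filter, 2 with DESeq2 and 1 with each of 2 other scalings, and 0 of the 157 changed sign. Besides the genes given with their value, calls lost without the block were those of Jund, Timp1, Tgfb1, Smad1, Cartpt, Trpa1, Gfra3, Trpv1, Trpm8, Npy1r, Cckar, Ntrk3, Piezo2, Kcns3, Calb1, Kcna2, Ptgfr, Scn2b, Scn4b, Scn11a, Cacng5, Cacna1e, Kcnh7, Kcnk3, Kcnb2, Kcnc2, P2rx3, Grin1, Gabra2, Chrna7, Chrm2, Chrnb3, Gfra2, Syt2, Sv2a, Sv2b, Nrxn3, Syp, Mapt, Unc5d, Sema4f, Dusp26, Sarm1, Mapk8ip1, Mapk10, Trp53, Gnao1, Dgki, Plcb1, Rasd2, Chac1, Slc7a3, Aldh1l2, Asns, Shmt2, Ifit1, Tecta, Adam11, Adamts8, Adam22, Tgfbi, Aldoc, Glul, Ube2c, mt-Co3, mt-Co1, Miat, Snhg11 and Cecr2, with adjusted p of 0.0523 (Rasd2) to 0.709 (Cacna1e). Among AP-1 genes that did not pass, the log2 fold change changed sign when a culture was left out, with ranges of -0.0991 to 0.0624 for Fos, -0.117 to 0.0877 for Junb, -0.0785 to 0.0140 for Batf3, -0.0310 to 0.00383 for Maf, -0.0143 to 0.0408 for Atf2 and -0.0391 to 0.0637 for Atf7. With a window of 100 bases before the start, AP-1 letters were in 2.65% of windows and the cAMP element in 1.40%. The causes of these changes were not tested. Each fit that left out a culture had fewer libraries, and the fit without a filter had more genes. Depth limits genes near 1 CPM such as Kcna5 and Npy, whose fold changes depend on the prior count.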
